A study of Homo sapiens with 21 samples.

Results

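The genes described here are the matrix proteases and their inhibitors: every gene of the deposited count table whose symbol is MMP, ADAM or ADAMTS followed by a number or TIMP followed by a digit, together with PLAU, PLAUR and PLAT. The rule used names only and no measured value. It gave 70 of the 26475 genes in the table: 22 MMP genes, 22 ADAM genes, 19 ADAMTS genes, 4 TIMP genes and 3 genes of plasminogen activation. Of these, 44 had 10 or more counts in at least 3 libraries and were tested: 12 MMP, 12 ADAM, 14 ADAMTS, 3 TIMP and all 3 plasminogen genes. ADAMTS17 passed through the UNC0642 libraries only. The other 26, TIMP4 among them, were not tested; 10 had no count in any library, and the highest count of any was 17.

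RNA came from SK-MEL-147, an established line of human melanoma cells, and was sequenced after poly-A selection in 21 libraries, 3 for each of 7 groups. The groups were untreated cells and cells given JQ-1 (an inhibitor of the BET bromodomain proteins), TP-472 (which binds the bromodomains of BRD9 and BRD7), GSK-591 (an inhibitor of the arginine methyltransferase PRMT5), MS023 (an inhibitor of the type I arginine methyltransferases), GSK-484 (an inhibitor of the arginine deiminase encoded by PADI4) or UNC0642 (an inhibitor of the histone methyltransferases EHMT1 and EHMT2). All cells were of this 1 line, grown in serum, and the sources used here give no dose, treatment time or vehicle. The labels call the replicates biological without stating that the cultures were separate, and the p-values therefore describe the spread of these libraries, which may be technical.

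Matrix metalloproteases (MMPs) are zinc enzymes, secreted or anchored in the plasma membrane, that cut collagens and other proteins of the matrix around a cell. ADAM proteins are membrane enzymes, many of which release the outer parts of other membrane proteins, and ADAMTS proteins are secreted enzymes that process proteoglycans, procollagens and other matrix proteins. TIMPs block these metalloproteases, while urokinase (PLAU) on its receptor (PLAUR) and tissue plasminogen activator (PLAT) turn plasminogen into plasmin, a protease that dissolves fibrin and can activate some MMPs.

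Summed counts ran from 20978182 to 78776788 per library, and the common coefficient of variation between replicates was 5.09%. Of the 8 melanocyte lineage markers, in CPM (counts scaled to a common library size), SOX10 and MITF stood above 1 in the mean of every group (MITF at 9.25 to 19.0 over the libraries), and MLANA, PMEL, TYR, TYRP1, DCT and S100B did not. The 6 markers of undifferentiated melanoma were all above 1 CPM, and their sum was highest with JQ-1 (2460.4 to 2492 CPM). With JQ-1 the means of AXL and NGFR in it stood above those of untreated cells (2052 against 1846 and 304 against 116 CPM) and those of WNT5A and SOX9 below (24.6 against 102 and 20.8 against 38.6 CPM), and the mean of SOX10 was 595 against 362 CPM. The 7 fibroblast markers summed to 6.84 to 7.90 CPM with JQ-1 and to 12.4 to 15.2 CPM elsewhere. Of these DCN had 0 counts in every library, and COL1A2 and COL3A1 were at or near 0. LUM and PDGFRB carried the difference, with JQ-1 means of 1.08 and 0.681 CPM against 5.04 and 3.59 in untreated cells. The means of COL1A1 and PDGFRA went the other way, at 5.32 and 0.353 CPM with JQ-1 against 4.06 and 0.216. No leukocyte, endothelial or epithelial marker reached 1 CPM in the mean of any group. In bulk RNA, fewer cells of a kind and less RNA per cell cannot be told apart.

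A property of the libraries touches every comparison with untreated cells. The slope of log2 CPM on transcript GC content, as the deviation from the mean of the 21 libraries, averaged -0.129 per 10 percentage points in the 3 untreated libraries (-0.176 to -0.0949). In the 18 treated libraries it averaged 0.0214 (-0.0352 to 0.124), so every untreated library lay below every treated one. Each comparison was therefore fitted 3 times: as counted, with the GC trend of each library removed, and with that trend removed and cells given other compounds as the reference in place of untreated cells. That reference held the 5 other compounds for JQ-1 and the 4 other than JQ-1 for the rest. A gene counted as called had an adjusted p under 0.05 in edgeR's quasi-likelihood test, with Benjamini-Hochberg adjustment over all 15287 genes tested. Levels are CPM after scaling by TMM, and changes are differences of log2 level with their standard error (SE).

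In untreated cells, on the scale of CPM per kilobase of the longest transcript, MMP14 had the highest level of the MMPs (396), and it made up 75.4 to 83.4% of the summed MMP level in every library of the series. MMP2 stood at 70.4 CPM per kilobase, TIMP2 at 216, TIMP1 at 46.9 and ADAMTS6 at 24.04. Of the ADAMs, ADAM9 had the highest level (90.6), above ADAM10 (15.9), ADAM19 (14.1) and ADAM12 (13.04). Of the plasminogen genes, PLAUR stood at 165 CPM per kilobase, PLAT at 73.1 and PLAU at 1.18. RNA for the urokinase receptor and for tissue plasminogen activator thus stood far above RNA for urokinase itself.

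With JQ-1, 22 of the 44 measured matrix proteases and inhibitors were lower, among them all 3 measured TIMPs. Of the 44 tested members, 31 were called, 9 higher and 22 lower, where 72.5% of all genes tested were called, 35.4% higher and 37.2% lower. The share of members called (70.5%) was thus close to that of all genes. A fall of at least 2-fold was called for 13 of the 44 members and for 1980 of all 15287 genes (13%). A rise of at least 2-fold was called for 3 of the 44 members and for 1044 of all 15287 genes (6.83%). The median change was -0.38 over the members and -0.0077 over all genes. Without the GC trend, 34 members were called, where 74.1% of all genes were. In all 3 fits 8 were higher and 22 lower, where 31.8% and 33.6% of all genes were. Scaling to total counts moved the median of all genes by -0.15 and gave 6 higher and 25 lower.

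Among the genes of plasminogen activation, PLAUR (chr19:43646095-43670547, minus strand, GRCh38), the urokinase receptor, stood at 248, 268 and 281 CPM in untreated cells and at 133, 141 and 141 CPM with JQ-1. All 3 JQ-1 libraries lay well below the untreated ones, and PLAUR fell by 0.94 (SE 0.049; edgeR adjusted p = 4.68e-14). PLAU (chr10:73909177-73917497, plus strand), urokinase, fell by 0.91 (SE 0.12; edgeR adjusted p = 3.6e-07), from 2.92, 3.26 and 3.25 CPM to 1.71, 1.68 and 1.61 CPM, again with no overlap. Its counts are uncertain, since PLAU overlaps the antisense gene C10orf55 and no source used here says whether the counting used strand. PLAT (chr8:42175233-42207724, minus strand) went the other way, from 246, 249 and 264 CPM to 300.1, 298 and 292 CPM, a rise of 0.23 (SE 0.038; edgeR adjusted p = 1.09e-05), with no overlap of libraries. Scaling to total counts took PLAT to 0.083 (edgeR adjusted p = 0.104).

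MMP14 (chr14:22836557-22849027, plus strand) encodes MT1-MMP, a membrane collagenase that also activates the secreted gelatinase MMP2. It stood at 1471, 1514 and 1446 CPM in untreated cells and at 847, 854 and 854 CPM with JQ-1, a fall of 0.79 (SE 0.031; edgeR adjusted p = 2.16e-16). MMP2 fell by 0.55 (SE 0.037; edgeR adjusted p = 5.16e-12), from 254, 269 and 267 CPM to 174, 188 and 178 CPM. In both genes every JQ-1 library lay below every untreated one.

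Other secreted MMPs were lower from low levels. MMP19, a protease of basement membrane proteins, stood at 2.30, 2.55 and 1.89 CPM in untreated cells and at 0.359, 0.196 and 0.378 CPM with JQ-1, a fall of 2.85 (SE 0.24; edgeR adjusted p = 3.79e-11). MMP3, stromelysin-1, had 10, 18 and 16 counts in the untreated libraries and 1, 0 and 1 with JQ-1. The ratio of the summed counts over library size was 17.8, with a 95% interval of 4.64 to 151 that covers counting error only, and MMP3 was called lower (edgeR adjusted p = 0.00016). MMP11, stromelysin-3, fell by 0.69 (SE 0.22; edgeR adjusted p = 0.00845), from 1.72 ± 0.274 to 1.06 ± 0.0752 CPM (SD, n = 3). Libraries did not overlap in any of these 3 genes. The interstitial collagenase MMP1 (0.546 to 1.10 CPM untreated, 0.893 to 1.09 with JQ-1) and the gelatinase MMP9 (0.103 to 0.192 and 0.0552 to 0.0841 CPM) were not called as counted, but MMP9 was called lower in both other fits, at -1.32 and -1.49 (edgeR adjusted p = 0.0499 and 0.00755). MMP19 has fractional counts in 95.2% of libraries and MMP3 in 9.52%, which comes from reads shared with other genes, so the level of MMP19 is uncertain.

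The membrane MMPs moved in both directions. MMP17, the GPI-anchored MT4-MMP, stood at 6.52, 6.38 and 7.05 CPM in untreated cells and at 22.7, 20.3 and 19.5 CPM with JQ-1, a rise of 1.65 (SE 0.11; edgeR adjusted p = 1.59e-12). MMP15, MT2-MMP, rose by 1.40 (SE 0.062; edgeR adjusted p = 2.01e-15), from 21.7, 21.4 and 20.9 CPM to 53.5, 59.1 and 56.8 CPM. Both groups were far apart in these genes, which have GC-rich transcripts (68.7 and 65.95% GC), and without the GC trend the changes were 1.36 and 1.14. MMP16, MT3-MMP, fell by 1.18 (SE 0.23; edgeR adjusted p = 7.46e-05), from 22.7, 16.6 and 11.1 CPM to 6.07, 7.87 and 8.52 CPM, and its untreated libraries themselves spread over 2-fold. MMP24, MT5-MMP (0.781 ± 0.181 CPM untreated, 1.26 ± 0.304 with JQ-1), was called higher with overlapping libraries and not without the GC trend (edgeR adjusted p = 0.0891). MMP25 was not called.

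Of the 8 ADAM genes with a catalytic site, 4 were called lower and 2 higher with JQ-1. ADAM12 (chr10:126012381-126388455, minus strand), a protease linked to cell fusion and growth factor shedding, stood at 111, 102 and 98.2 CPM in untreated cells and at 24.7, 21.8 and 21.02 CPM with JQ-1, a fall of 2.20 (SE 0.075; edgeR adjusted p = 2e-17). ADAM19, which is close to it in sequence, fell by 1.53 (SE 0.046; edgeR adjusted p = 2.28e-18), from 94.4, 91.8 and 88.7 CPM to 32.3, 30.9 and 32.3 CPM. In both, the gap between the groups was wider than the range within either. ADAM8, a protease known from leukocytes and invasive tumour cells, fell by 0.50 (SE 0.11; edgeR adjusted p = 0.0002), from 7.03 ± 0.227 to 4.97 ± 0.298 CPM (SD, n = 3). ADAM21 fell by 1.09 (SE 0.39; edgeR adjusted p = 0.0139), from 0.679 ± 0.130 to 0.323 ± 0.0965 CPM. Without JQ-1 replicate 1 or untreated replicate 1 its change was -0.87 (edgeR adjusted p = 0.0747) and -0.94 (edgeR adjusted p = 0.058).

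ADAM15, an adhesion protein and protease, rose by 0.99 (SE 0.063; edgeR adjusted p = 1.77e-12), from 48.1, 53.2 and 49.7 CPM to 98.96, 100.03 and 100.3 CPM, and its change without the GC trend was 0.75. ADAM9 was called higher by 0.14 (SE 0.034; edgeR adjusted p = 0.00077), at 384 ± 5.33 against 348 ± 16.5 CPM, but scaling to total counts gave -0.0025, so its direction rests on the scaling. The main sheddases ADAM10 (182 ± 15.4 untreated, 192 ± 1.06 CPM with JQ-1) and ADAM17 (64.6 ± 4.22 and 67.1 ± 1.08 CPM) were not called as counted. Both were called higher without the GC trend, by 0.23 and 0.20 (edgeR adjusted p = 1.88e-06 and 0.000678), and with the other compounds as the reference, by 0.26 and 0.18 (edgeR adjusted p = 3.27e-09 and 0.000132). ADAM11, ADAM22, ADAM23 and ADAM32, the other ADAMs tested, were not called as counted. ADAM11 was called lower in both other fits, at -0.40 and -0.33 (edgeR adjusted p = 0.00823 and 0.00481), and ADAM22 higher with the other compounds as the reference, at 0.24 (edgeR adjusted p = 0.00338).

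The ADAMTS proteoglycanases, which cut aggrecan and versican, were lower in 4 of 5 cases. ADAMTS5 stood at 4.32, 3.59 and 4.15 CPM in untreated cells and at 0.276, 0.672 and 0.515 CPM with JQ-1, a fall of 3.05 (SE 0.27; edgeR adjusted p = 8.64e-11). ADAMTS4 fell by 1.76 (SE 0.062; edgeR adjusted p = 2.91e-17), from 55.5, 56.01 and 54.7 CPM to 15.3, 16.6 and 17.2 CPM. The libraries of the groups were far apart in both genes. ADAMTS9 fell by 1.15 (SE 0.099) from 16.4 ± 1.69 to 7.43 ± 0.714 CPM and ADAMTS1 by 0.73 (SE 0.042) from 123 ± 7.13 to 73.7 ± 1.92 CPM (SD, n = 3), while ADAMTS15 (0.493 to 0.571 CPM untreated, 0.552 to 0.721 with JQ-1) was not called.

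Of the 3 procollagen peptidases, ADAMTS2 fell by 1.08 (SE 0.057; edgeR adjusted p = 5.03e-14), from 25.6, 28.1 and 25.7 CPM to 11.997, 11.8 and 13.9 CPM, with no overlap; ADAMTS3 and ADAMTS14 were called lower with the other compounds as the reference only, at -0.46 and -0.57 (edgeR adjusted p = 0.00862 and 0.00396). ADAMTS6 (chr5:65148736-65481920, minus strand), a secreted protease of microfibril proteins, fell by 1.45 (SE 0.038; edgeR adjusted p = 1.63e-19), from 183, 171 and 173 CPM to 64.2, 62.96 and 66.5 CPM. ADAMTS12, which cuts the cartilage protein COMP, fell by 1.61 (SE 0.16; edgeR adjusted p = 1.84e-09), from 13.9, 11.3 and 8.54 CPM to 4.08, 3.36 and 3.68 CPM. ADAMTS7, its close relative, rose by 0.95 (SE 0.082; edgeR adjusted p = 3.36e-10), from 8.90, 10.4 and 9.04 CPM to 18.3, 18.8 and 17.6 CPM. The relatives thus moved in opposite directions, and neither overlapped between the groups; ADAMTS7 has fractional counts in every library, so its level is uncertain. ADAMTS13, which cuts von Willebrand factor, rose by 1.12 (SE 0.32; edgeR adjusted p = 0.00325), from 0.432 ± 0.101 to 0.942 ± 0.189 CPM, and ADAMTS16 rose by 0.63 (SE 0.078), from 12.6 ± 1.56 to 19.5 ± 1.08 CPM.

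All 3 measured TIMPs were lower with JQ-1, by unequal amounts. TIMP1 (chrX:47582313-47586789, plus strand), a secreted inhibitor of most MMPs, stood at 48.2, 51.5 and 54.5 CPM in untreated cells and at 23.4, 19.5 and 20.1 CPM with JQ-1, a fall of 1.29 (SE 0.077; edgeR adjusted p = 4.5e-13). TIMP3, which binds the matrix and also inhibits ADAM17, fell by 0.36 (SE 0.047; edgeR adjusted p = 2.94e-07), from 29.5, 29.2 and 30.01 CPM to 22.4, 23.9 and 22.5 CPM. TIMP2 (chr17:78852977-78925387, minus strand), which blocks MMP14 and also takes part in the activation of MMP2 by it, fell by 0.15 (SE 0.029; edgeR adjusted p = 5.47e-05), from 806, 787 and 769 CPM to 708, 715 and 701 CPM. In all 3 genes the JQ-1 libraries lay below the untreated ones.

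**Figure D1:**
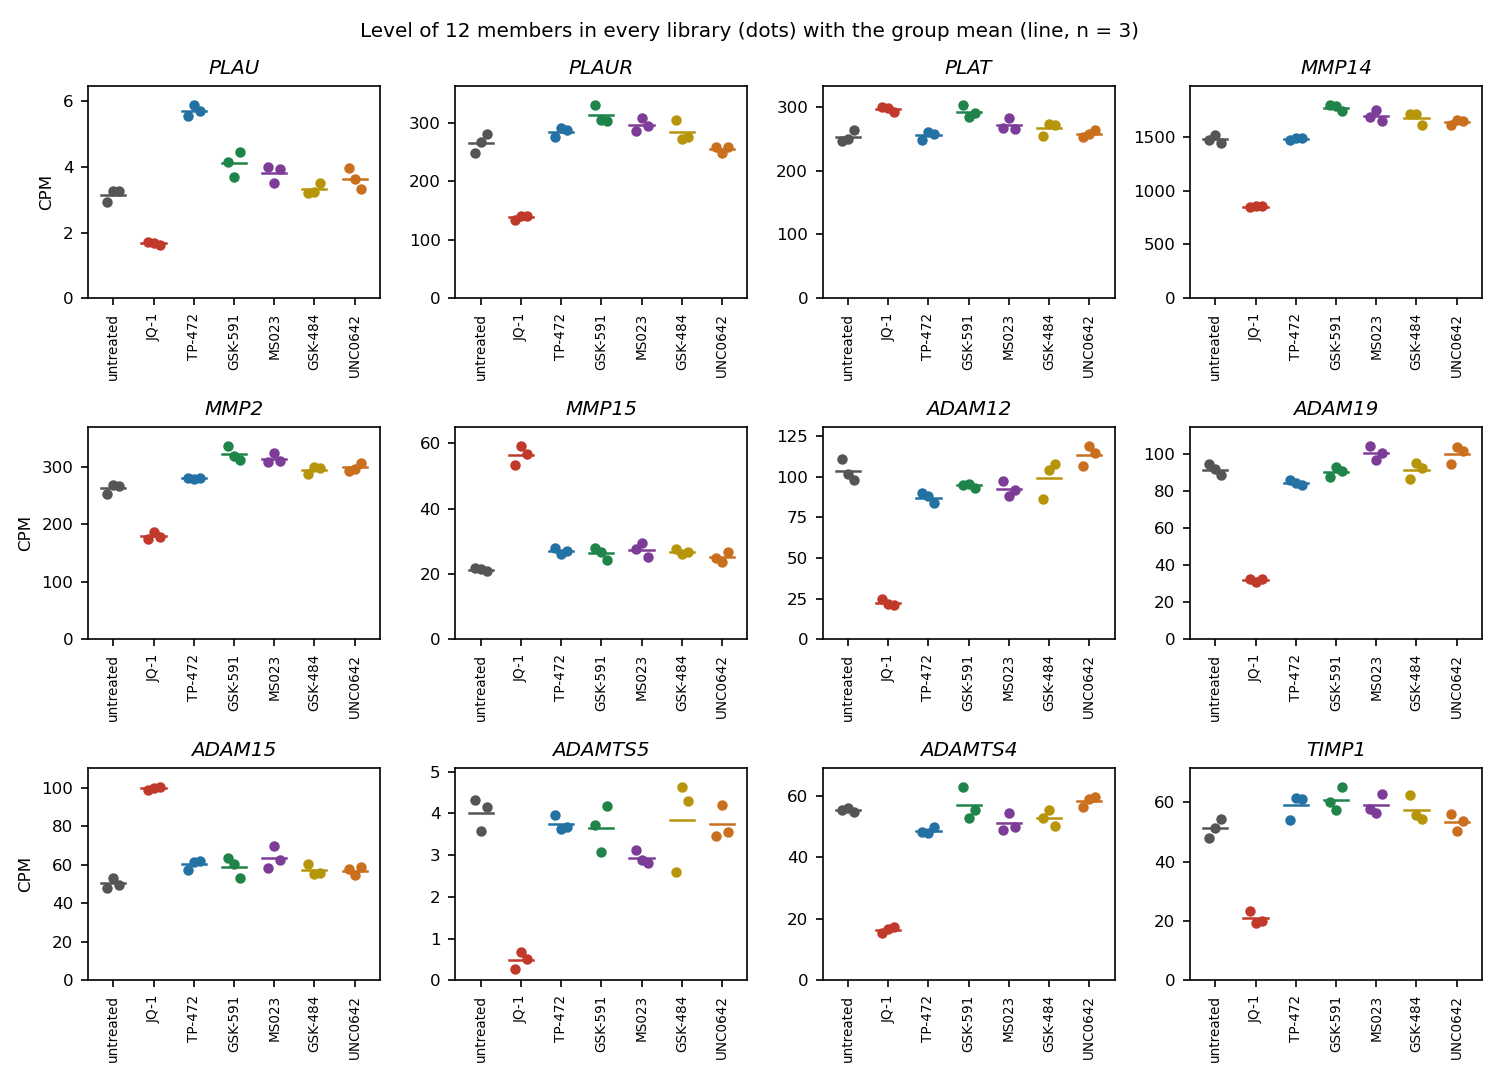
Level in CPM (y axis, from 0, scale differing between panels) of 12 members in each of the 21 libraries (dots, by group on the x axis), with the mean of 3 libraries as a line. JQ-1 libraries lie lowest for PLAU, PLAUR, MMP14, MMP2, ADAM12, ADAM19, ADAMTS5, ADAMTS4 and TIMP1 and highest for MMP15 and ADAM15, and TP-472 libraries lie highest for PLAU (5.55 to 5.87 CPM).

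On the per-kilobase scale the balance of MMP14 and TIMP2 RNA also differed. The ratio of the MMP14 level to the TIMP2 level was 1.79, 1.88 and 1.84 in untreated libraries and 1.17, 1.17 and 1.19 with JQ-1, while the other treated libraries ran from 1.90 to 2.17. JQ-1 libraries lay below all others, and untreated libraries lay below all those given the other 5 compounds. The GC trend was not removed from these ratios, and the MMP14 transcript has more GC than that of TIMP2 (58.9 against 53.7%). Whether untreated libraries stay below those given the other 5 compounds without that trend was not tested. The direction depends on the inhibitor chosen. From untreated to JQ-1 cells the mean MMP14 level went from 396 to 228 CPM per kilobase. That of TIMP1 went from 46.9 to 19.2, a larger fall in proportion, and that of TIMP3 from 6.42 to 4.99, a smaller one. The ratio of the summed MMP to the summed TIMP level was 1.775 ± 0.0385 in untreated cells and 1.377 ± 0.0231 with JQ-1 (SD, n = 3). The ratios were compared by their values alone: for 3 libraries against 3 the smallest two-sided p of an exact permutation test is 0.1, so that test cannot pass 0.05. The summed level of the ADAMTS genes was 66.1 ± 2.59 CPM per kilobase in untreated cells and 36.01 ± 0.494 with JQ-1 (SD, n = 3), and that of the TIMPs 269 ± 2.08 and 218 ± 2.54. The summed level of the ADAMs, 162 ± 7.05 and 164 ± 1.01 CPM per kilobase, differed by less than the SD of the untreated libraries, with ADAM12 and ADAM19 lower and ADAM15 higher within it.

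**Figure D2:**
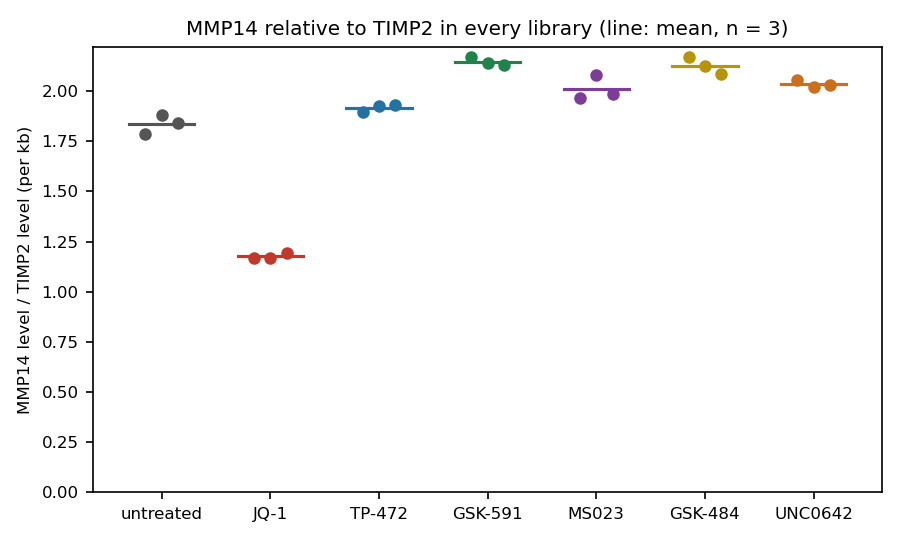
Ratio of the MMP14 level to the TIMP2 level, both in CPM per kilobase (y axis, from 0), in each of the 21 libraries (dots, by group on the x axis), with the mean of 3 libraries as a line. JQ-1 libraries sit at 1.17 to 1.19 and all others between 1.79 and 2.17. The GC trend of the libraries was not removed.

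The starts of genes that moved with JQ-1 are shown for 5 members whose promoter window overlaps no annotated exon, chosen after their values were seen. RefSeq promoters (GRCh38.p14) were at hand for 25 of the 44 tested members. Each sequence is the 250 bases before the gene start, on the gene's strand, with GC boxes (GGGCGG on either strand) in capitals. The first 4 belong to genes that fell, and the last to ADAMTS7, which rose and whose window lies inside the span of MORF4L1 on the other strand. All 5 lie on the minus strand, at chr10:126388478-126388727, chr5:157575776-157576025, chr5:65481921-65482170, chr5:179345462-179345711 and chr15:78811465-78811714.
ADAM12: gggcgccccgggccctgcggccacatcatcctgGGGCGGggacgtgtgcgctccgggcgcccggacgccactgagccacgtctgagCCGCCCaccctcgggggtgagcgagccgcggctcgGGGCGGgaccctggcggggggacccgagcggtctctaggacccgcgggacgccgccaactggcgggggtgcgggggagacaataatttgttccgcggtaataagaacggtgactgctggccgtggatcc
ADAM19: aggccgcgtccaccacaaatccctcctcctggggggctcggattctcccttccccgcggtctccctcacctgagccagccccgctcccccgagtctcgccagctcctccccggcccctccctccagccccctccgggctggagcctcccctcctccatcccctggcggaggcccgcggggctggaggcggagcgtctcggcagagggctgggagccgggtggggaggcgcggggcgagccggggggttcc
ADAMTS6: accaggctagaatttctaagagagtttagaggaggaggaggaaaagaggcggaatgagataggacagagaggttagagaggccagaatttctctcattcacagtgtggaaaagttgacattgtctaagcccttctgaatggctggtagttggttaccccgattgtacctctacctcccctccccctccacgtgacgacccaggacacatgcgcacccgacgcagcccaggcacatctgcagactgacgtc
ADAMTS2: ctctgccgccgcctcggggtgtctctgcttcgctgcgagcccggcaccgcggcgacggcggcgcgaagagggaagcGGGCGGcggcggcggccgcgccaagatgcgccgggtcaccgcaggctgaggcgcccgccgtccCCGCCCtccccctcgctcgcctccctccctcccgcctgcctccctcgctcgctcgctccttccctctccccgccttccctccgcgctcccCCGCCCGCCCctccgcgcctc
ADAMTS7: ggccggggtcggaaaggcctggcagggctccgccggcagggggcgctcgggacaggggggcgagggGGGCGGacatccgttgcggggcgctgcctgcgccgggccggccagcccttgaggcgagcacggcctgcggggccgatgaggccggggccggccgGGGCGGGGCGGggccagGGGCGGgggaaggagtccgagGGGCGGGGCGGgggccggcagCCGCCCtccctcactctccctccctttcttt
The ADAM12 promoter holds 3 GC boxes, that of ADAMTS2 4 and that of ADAMTS7 7, while those of ADAM19 and ADAMTS6 hold 0. The promoter of ADAM8, which also fell and overlaps no annotated exon, is not shown and holds 3. GC boxes were found in 84% of the 25 member promoters and in 42.6% of all 35116 promoters of this length. By call with JQ-1, 9 of 13 promoters of members called lower, 5 of 5 of those called higher and 7 of 7 of those not called held one. These matches describe letters, not bound sites.

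The same promoters were searched for TGANTCA on either strand, with N as any base. The pattern is a loose form of the binding motif of AP-1 factors, which several MMP genes are known to use. It was found in 2 of the 25 member promoters (8%) and in 6.57% of all promoters, a share near the background. Both belong to genes that fell with JQ-1, ADAMTS12 (chr5:33892058-33892084, motif starting 84 bases before the gene start) and PLAUR (chr19:43670339-43670365, 186 bases before it), both on the minus strand, counted from the start in the RefSeq table. Both motifs lie inside the annotated span of their own gene, whose outermost start is further upstream, and both windows overlap an exon of that gene. The matched letters are in capitals within 10 flanking bases, and the base at N is A in ADAMTS12 and G in PLAUR.
ADAMTS12: cactgtcagcTGAATCActcccctttt
PLAUR: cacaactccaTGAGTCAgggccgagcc
The TATA box (TATAAA, either strand) was found in 0 of the 25 member promoters and in 10.7% of all promoters, and the CCAAT box (CCAAT, either strand) in 8 of 25 and in 32% of all. Genes of AP-1 and ETS factors themselves moved in both directions with JQ-1, 6 of 13 higher and 7 lower. Of all genes tested, 35.4% were called higher and 37.2% lower. JUND rose by 1.72 (SE 0.072) from 119 ± 10.9 to 394 ± 8.31 CPM and JUNB by 1.36 (SE 0.066) from 38.7 ± 4.01 to 99.3 ± 0.868 CPM, while the ETS factor ELK3 fell by 1.41 (SE 0.037) from 296 ± 7.66 to 111 ± 2.96 CPM (SD, n = 3).

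Genes that act with the proteases changed in both directions with JQ-1 as well. Outside the members, 8 genes of plasminogen activation were tested, 2 higher and 5 lower, where 35.4% and 37.2% of all genes were. SERPINA5, an inhibitor of urokinase and protein C, fell by 1.81 (SE 0.054), from 40.8 ± 0.543 to 11.6 ± 0.821 CPM (SD, n = 3). SERPINB2, an inhibitor of urokinase, fell by 2.02 (SE 0.25), from 2.44 ± 0.464 to 0.612 ± 0.266 CPM, and the plasmin inhibitor SERPINF2 by 2.11 (SE 0.46), from 0.432 ± 0.0905 to 0.0969 ± 0.0363 CPM. ANXA2, a surface protein that binds PLAT and plasminogen, rose by 1.70 (SE 0.035), from 1637 ± 75.3 to 5332 ± 57.2 CPM; this gene was chosen after its values were seen.

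Of 12 other matrix-degrading proteases tested, 6 were higher and 6 lower with JQ-1, where 35.4% and 37.2% of all genes were. The elastin-cutting cathepsin CTSS fell by 2.86 (SE 0.071) from 56.1 ± 2.23 to 7.74 ± 0.960 CPM, the membrane serine protease ST14 by 2.39 (SE 0.41) from 0.637 ± 0.0534 to 0.118 ± 0.0446 CPM, and TLL2, of the BMP1 family of procollagen C-proteinases, rose by 2.15 (SE 0.76) from 0.0945 ± 0.0879 to 0.407 ± 0.0729 CPM (SD, n = 3). Of 8 other protease inhibitors, 3 were higher and 4 lower, against the same shares of all genes. TFPI2 fell by 1.26 (SE 0.043) from 89.4 ± 3.10 to 37.2 ± 1.32 CPM, SERPINF1 by 1.15 (SE 0.18) from 2.55 ± 0.390 to 1.14 ± 0.210 CPM and SERPINA3 by 1.89 (SE 0.45) from 0.595 ± 0.186 to 0.153 ± 0.0727 CPM. Of 15 activators and partners, 10 were higher and 3 lower, again against 35.4% and 37.2% of all genes. The tetraspanin TSPAN10, a partner of ADAM10, fell by 2.73 (SE 0.39) from 1.58 ± 0.0820 to 0.229 ± 0.148 CPM, while TSPAN33, another such partner, rose by 1.47 (SE 0.28) and the proprotein convertase PCSK5 by 1.18 (SE 0.074).

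Of 19 ligands and receptors that ADAMs release, 8 were higher and 8 lower with JQ-1, where 35.4% and 37.2% of all genes were. The growth factors TGFA and NRG1 fell by 2.35 (SE 0.088) and 2.34 (SE 0.086), from 27.1 ± 3.10 to 5.32 ± 0.310 CPM and from 28.5 ± 0.620 to 5.61 ± 0.246 CPM (SD, n = 3), and the TNF receptor TNFRSF1B fell by 1.15 (SE 0.26). Of 10 ADAMTS-like genes and ADAMTS substrates, 5 were higher and 5 lower, against the same shares of all genes. The proteoglycan BCAN rose by 3.31 (SE 0.23) from 0.554 ± 0.0396 to 5.50 ± 0.326 CPM, the ADAMTS-like matrix protein PAPLN by 1.11 (SE 0.071) and thrombospondin-1 (THBS1) by 1.07 (SE 0.044) from 621 ± 29.6 to 1300.3 ± 2.75 CPM.

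With TP-472, urokinase had the largest change of the called members. Of the 44 members, 15 were called, 4 higher and 11 lower, where 31.3% of all genes were called, 17% higher and 14.3% lower. Without the GC trend 12 members were called, where 11.8% of all genes were. In all 3 fits PLAU was higher and 6 members were lower, where 1.38% and 2.45% of all genes were. The median change over the members was 0.017 as counted and -0.077 without the GC trend.

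PLAU stood at 2.92, 3.26 and 3.25 CPM in untreated cells and at 5.55, 5.87 and 5.69 CPM with TP-472, above every other library of the series. It rose by 0.86 (SE 0.10; edgeR adjusted p = 1.27e-05), and its change was 0.77 without the GC trend and 0.62 with the other compounds as the reference. The counts of PLAU are uncertain, with fractional values in 47.6% of libraries and the overlap with C10orf55 given above. The urokinase receptor PLAUR (285 ± 7.64 against 266 ± 16.2 CPM; edgeR adjusted p = 0.11) and PLAT (256 ± 6.70 against 253 ± 9.59 CPM; edgeR adjusted p = 0.812) were not called. Of 8 other genes of plasminogen activation, 0 were called higher and 2 lower, where 17% and 14.3% of all genes were. Among those 2 lower genes, SERPINB2 fell by 0.84 (SE 0.21) from 2.44 ± 0.464 to 1.37 ± 0.235 CPM (SD, n = 3).

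The 6 members that fell in all 3 fits were 2 ADAMs, 3 ADAMTS genes and TIMP3. ADAMTS6 fell by 0.26 (SE 0.036; edgeR adjusted p = 3.37e-05), from 183, 171 and 173 CPM to 149, 148 and 142 CPM. ADAM12 fell by 0.25 (SE 0.067; edgeR adjusted p = 0.00743), from 111, 102 and 98.2 CPM to 90.01, 87.9 and 83.7 CPM, and without untreated replicate 1 it stood at -0.20 (edgeR adjusted p = 0.0602). TIMP3 fell by 0.23 (SE 0.046; edgeR adjusted p = 0.000787), from 29.5, 29.2 and 30.01 CPM to 25.9997, 26.3 and 23.2 CPM. No library overlapped between the groups in these 3 genes. ADAMTS4 fell by 0.19 (SE 0.055) from 55.4 ± 0.679 to 48.6 ± 0.998 CPM, ADAMTS1 by 0.18 (SE 0.041) from 123 ± 7.13 to 108 ± 3.68 CPM and ADAM19 by 0.12 (SE 0.043) from 91.6 ± 2.81 to 84.6 ± 1.54 CPM (SD, n = 3). The call of ADAM19 was lost without untreated replicate 1 or 2 or TP-472 replicate 2 or 3 (edgeR adjusted p = 0.176, 0.0828, 0.107 and 0.134), and that of ADAMTS4 without TP-472 replicate 2 (edgeR adjusted p = 0.0523). With GSK-484 cells as the reference, as counted, ADAM12, ADAM19 and ADAMTS4 were not called. They then stood at -0.19, -0.11 and -0.12 (edgeR adjusted p = 0.162, 0.2 and 0.298).

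The other calls with TP-472 were lost in at least 1 of the 3 fits. MMP15 (0.34), ADAM15 (0.26) and TIMP1 (0.20, overlapping libraries) were called higher as counted, and without the GC trend they stood at 0.061, 0.015 and 0.047, not called. The sheddase ADAM10 (-0.25) then stood at -0.096 (edgeR adjusted p = 0.0646). ADAMTS9 (-0.29) stood at -0.19 (edgeR adjusted p = 0.0903) with the other compounds as the reference. The call of TIMP1 was also lost without untreated replicate 1 or 2 or TP-472 replicate 2 or 3 (edgeR adjusted p = 0.161, 0.0597, 0.129 and 0.119), and that of ADAMTS9 without untreated replicate 2 or TP-472 replicate 3 (edgeR adjusted p = 0.0987 and 0.0723). Called members had a median transcript GC content of 60.9% where higher and 47.0% where lower. TIMP2 (756 ± 2.65 against 787 ± 18.3 CPM) and MMP14 (1481 ± 13.1 against 1477 ± 34.2 CPM) were not called as counted. Both were called lower without the GC trend, at -0.15 and -0.17 (edgeR adjusted p = 0.00333 and 0.000562), and with the other compounds as the reference, at -0.082 and -0.20 (edgeR adjusted p = 0.0259 and 3.03e-06).

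**Figure D3:**
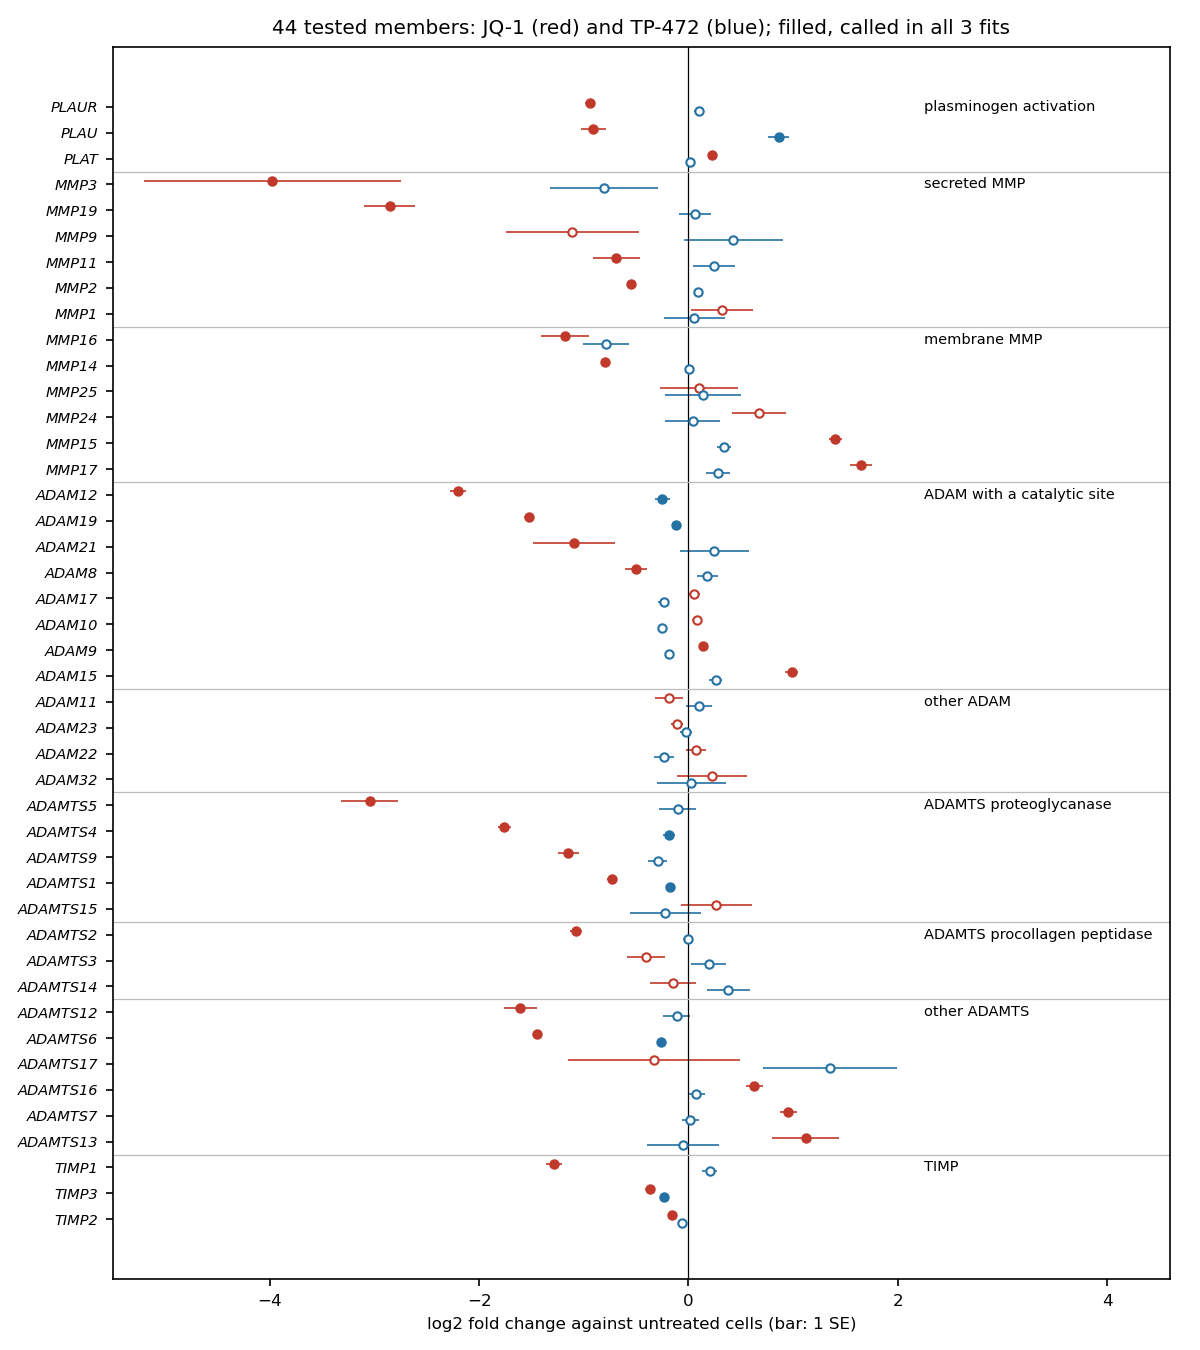
Log2 fold change against untreated cells (x axis, bars of 1 SE, 3 libraries a group) of the 44 tested members, grouped by role, for JQ-1 (red) and TP-472 (blue), with filled dots for members called the same way in the 3 fits. JQ-1 values run from -3.98 (MMP3, fitted from 2 counts with JQ-1) to 1.65 (MMP17), and those with TP-472 from -0.80 (MMP3) to 1.35 (ADAMTS17), neither of these 2 called.

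Set against each other directly, the bromodomain compounds differed in most members. TP-472 cells were higher than JQ-1 cells in 25 members and lower in 12, where 71.7% of all genes were called, 37.1% higher and 34.6% lower. The fit without the GC trend called 36 members, where 73.8% of all genes were. Both fits called 24 higher and 12 lower, where 37.1% and 34.4% of all genes were.

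MMP3 had 13, 4 and 8 counts in the TP-472 libraries against 1, 0 and 1, a ratio over library size of 10.1 with a 95% interval of 2.52 to 88.1. The members with the next largest differences were ADAMTS5 (3.76 ± 0.185 against 0.488 ± 0.200 CPM), MMP19 (2.34 ± 0.0678 against 0.311 ± 0.0998 CPM) and ADAM12 (87.2 ± 3.23 against 22.5 ± 1.95 CPM). PLAU differed by 1.77 (SE 0.12; edgeR adjusted p = 1.97e-12), its level being above that of untreated cells with 1 compound and below it with the other. Its counts carry the uncertainty stated above. PLAUR was higher with TP-472 by 1.04 (SE 0.049), TIMP1 by 1.49 (SE 0.076) and ADAMTS4 by 1.57 (SE 0.062). PLAT was lower by 0.21 (SE 0.038), and scaling to total counts took it to -0.078 (edgeR adjusted p = 0.126).

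On the lower side, TP-472 cells stood below JQ-1 cells in MMP17 by 1.37 (SE 0.10), in ADAMTS13 by 1.17 (SE 0.32), in MMP15 by 1.06 (SE 0.060), in ADAMTS7 by 0.94 (SE 0.082) and in ADAM15 by 0.73 (SE 0.062). ADAMTS16 (-0.55), ADAM10 (-0.33) and ADAM9 (-0.32) followed. ADAMTS17 (0.225 ± 0.0887 against 0.0713 ± 0.0388 CPM) and MMP9 (0.205 ± 0.0883 against 0.0693 ± 0.0145 CPM) were called higher with TP-472. Each call was lost without TP-472 replicate 2 (edgeR adjusted p = 0.122 and 0.0655) or JQ-1 replicate 1 (0.0513 and 0.0641), that of ADAMTS17 also without JQ-1 replicate 2 (0.12) and that of MMP9 without TP-472 replicate 3 (0.0622).

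TIMP2 was higher with TP-472 than with JQ-1 by 0.094 (SE 0.029) and stood at 0.059 without the GC trend (edgeR adjusted p = 0.0804). TIMP3 was higher by 0.13 (SE 0.048) with overlapping libraries, a call lost without JQ-1 replicate 1 or 3 or TP-472 replicate 1 or 2 (edgeR adjusted p = 0.0608, 0.0505, 0.0641 and 0.0931). Doses and times being unknown, these differences compare the samples, not the strength of the compounds.

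With GSK-591, members were called in both directions, and 5 of the calls held in all 3 fits. Of the 44 members, 18 were called, 12 higher and 6 lower, where 32.2% of all genes were called, 17.5% higher and 14.6% lower. Scaling to total counts gave 10 higher and 8 lower. Removal of the GC trend left 6 called, where 12.9% of all genes were. In all 3 fits MMP14, MMP2, PLAUR and PLAT were higher and ADAM9 lower, where 2.01% and 2.07% of all genes were. With GSK-484 cells as the reference, as counted, MMP14, MMP2, PLAUR and PLAT were not called. They then stood at 0.079, 0.13, 0.14 and 0.13 (edgeR adjusted p = 0.186, 0.0705, 0.13 and 0.0611).

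MMP14 stood at 1792, 1781 and 1740.5 CPM with GSK-591 against 1471, 1514 and 1446 CPM in untreated cells, a rise of 0.26 (SE 0.031; edgeR adjusted p = 7.63e-06). MMP2 rose by 0.29 (SE 0.037; edgeR adjusted p = 1.23e-05), to 336, 319.8 and 312 CPM from 254, 269 and 267 CPM. PLAUR rose by 0.24 (SE 0.048; edgeR adjusted p = 0.000701), to 330.2, 306 and 304 CPM from 248, 268 and 281 CPM. Every GSK-591 library lay above every untreated one in these genes. Their changes were smaller without the GC trend, at 0.086, 0.16 and 0.12, and with the other compounds as the reference they were 0.12, 0.11 and 0.15. PLAT rose by 0.21 (SE 0.038; edgeR adjusted p = 0.000304), to 302, 285 and 289.9 CPM from 246, 249 and 264 CPM, with changes of 0.25 and 0.15 in the other fits. ADAM9 fell by 0.25 (SE 0.035; edgeR adjusted p = 2.91e-05), from 367, 338 and 338 CPM to 293, 291 and 294 CPM, with changes of -0.11 and -0.12. Libraries did not overlap in PLAT or ADAM9.

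The other GSK-591 calls were lost in at least 1 of the 3 fits. MMP17 (0.42), PLAU (0.40), ADAMTS7 (0.34) and MMP15 (0.30) were called higher and stood at 0.10, 0.31, 0.055 and 0.016 without the GC trend, none of them called. MMP16, lower by 0.84 (SE 0.23), was not called without untreated replicate 1 (-0.55; edgeR adjusted p = 0.0845) or without the GC trend (-0.65; edgeR adjusted p = 0.0547). ADAM17 (-0.23) and ADAM10 (-0.21) stood at -0.077 and -0.043 without the trend. TIMP1 was called higher by 0.25 (SE 0.071), at 60.8 ± 3.96 against 51.4 ± 3.15 CPM, and stood at 0.090 without the trend; its call was lost without untreated replicate 1 or GSK-591 replicate 3 (edgeR adjusted p = 0.0631 and 0.0649). TIMP2 (807 ± 7.09 CPM) and TIMP3 (31.3 ± 0.568 CPM) were not called.

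With MS023, 20 members were called, 15 higher and 5 lower, where 41.8% of all genes were called, 21.9% higher and 19.9% lower. Scaling to total counts gave 7 higher and 7 lower, no filter on low counts 10 and 6, and 11 were called without untreated replicate 1. Removal of the GC trend left 5 called, where 16.9% of all genes were. In all 3 fits ADAM8 was higher and ADAMTS6 lower, where 3.18% and 2.71% of all genes were. ADAM8 stood at 9.90, 12.4 and 11.004 CPM with MS023 against 6.79, 7.23 and 7.07 CPM, a rise of 0.66 (SE 0.096; edgeR adjusted p = 1.18e-05), with a change of 0.33 without the GC trend. With GSK-484 cells as the reference, as counted, ADAM8 stood at 0.14 and was not called (edgeR adjusted p = 0.339). ADAMTS6 fell by 0.28 (SE 0.036; edgeR adjusted p = 3.28e-06), from 183, 171 and 173 CPM to 144, 142 and 148 CPM, with a change of -0.16 without the trend. Libraries did not overlap in either gene.

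Among the other MS023 calls, ADAMTS14 (0.57), MMP17 (0.46) and ADAMTS7 (0.38) were higher and stood at 0.28, 0.047 and 0.013 without the GC trend. PLAU (0.28), PLAUR (0.16) and TIMP1 (0.20) were called higher too and stood at 0.16, 0.0056 and -0.0061, none called. PLAT (0.10) stood at 0.17 and, with the other compounds as the reference, at 0.051 (edgeR adjusted p = 0.315). ADAM9 (-0.19) and ADAM10 (-0.16) were called lower and stood at -0.0032 and 0.043. ADAMTS5 was called lower by 0.46 (SE 0.18), at 2.94 ± 0.171 against 4.02 ± 0.383 CPM, and not without the trend (-0.30; edgeR adjusted p = 0.26). Leaving out untreated replicate 1 took the calls of PLAU, PLAUR, PLAT, TIMP1, ADAMTS14, ADAMTS5 and ADAM10 (edgeR adjusted p from 0.0623 to 0.155), and each of these but ADAM10 was also lost without at least 1 MS023 replicate. TIMP2 and TIMP3 were not called as counted. With the other compounds as the reference TIMP3 was called higher, at 0.15 without the GC trend (edgeR adjusted p = 0.00662) and at 0.14 with it (0.0093), and TIMP2 only with it, at 0.080 (0.0168).

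GSK-591 and MS023 were also set against each other. In the edgeR test 0 of the 44 members were higher with GSK-591 and 3 lower, where 9.54% of all genes were called, 5.05% higher and 4.49% lower. At an unadjusted p under 0.05 it gave 5 higher and 3 lower, and DESeq2 called 0 higher and 3 lower. The fit without the GC trend called 5, where 10.1% of all genes were. Both fits called 0 higher and 2 lower, where 3.88% and 3.71% of all genes were. ADAM17 was lower with GSK-591 by 0.19 (SE 0.056), at 52.8, 54.2 and 57.8 against 66.2, 58.9 and 62.7 CPM, and ADAM19 by 0.15 (SE 0.043), at 87.6, 93.02 and 90.9 against 104, 96.8 and 100.4 CPM. The groups did not overlap in these genes, while ADAM8, lower by 0.37 (SE 0.098) at 10.1, 7.92 and 7.75 against 9.90, 12.4 and 11.004 CPM, did overlap.

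Leaving out GSK-591 replicate 1 or 3 or MS023 replicate 1 or 3 left 1 of these calls. PLAT differed by 0.11 (SE 0.038; edgeR adjusted p = 0.0809), PLAUR by 0.079 (SE 0.048; edgeR adjusted p = 0.332) and PLAU by 0.12 (SE 0.11; edgeR adjusted p = 0.539), so the plasminogen genes were not shown to differ between the PRMT compounds. The TIMPs were not called either.

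With GSK-484, 7 members were called, 6 higher and 1 lower, where 18.7% of all genes were called, 11.1% higher and 7.6% lower. Scaling to total counts gave 5 higher and 3 lower. ADAM8 (0.52), MMP17 (0.43), MMP15 (0.33) and ADAM15 (0.19) had the largest rises of the called members, and ADAM10 fell by 0.22 (SE 0.044; edgeR adjusted p = 0.00305), from 199, 177 and 169.9 CPM to 153, 158 and 159 CPM with no overlap. The 6 higher members had a median transcript GC content of 63.8%, and ADAM10 38.3%. Without the GC trend edgeR called 0 of the 44 (9 at an unadjusted p under 0.05; DESeq2 on the counts as they stand called 9), where 0.721% of all genes were called. In all 3 fits edgeR again called 0, where 0.014% of all genes were. ADAM8 then stood at 0.30 (edgeR adjusted p = 0.0762), MMP17 at 0.15 and MMP15 at 0.082. ADAM15 lost its call as counted without GSK-484 replicate 1 or untreated replicate 1 or 3 (edgeR adjusted p = 0.19, 0.188 and 0.0858), and MMP17 without GSK-484 replicate 1 or untreated replicate 1 (edgeR adjusted p = 0.104 and 0.0561).

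With UNC0642, 7 members were called, all higher, where 15.9% of all genes were called, 9.11% higher and 6.78% lower; at an unadjusted p under 0.05 edgeR gave 0 lower and DESeq2 called 0 lower. MMP17 (0.34), ADAMTS16 (0.29), MMP15 (0.23) and MMP2 (0.18) were among them, with MMP2 at 294, 297 and 307 CPM against 254, 269 and 267 CPM and no overlap. Without the GC trend these 4 stood at 0.15, 0.23, 0.047 and 0.098, none called, and edgeR called 1 of the 44, where 2.65% of all genes were called. With the other compounds as the reference as well, 14 were called, where 26% of all genes were, and 0 were called in all 3 edgeR fits (14 at an unadjusted p under 0.05 and 9 by DESeq2 in the counts as they stand), where 1.34% of all genes were. Without UNC0642 replicate 2 or 3 or untreated replicate 3, 4, 3 and 3 members were called, and MMP17 was lost without any 1 of the 6 libraries (edgeR adjusted p from 0.0515 to 0.125), ADAMTS16 without untreated replicate 3 or UNC0642 replicate 2 (0.0987 and 0.082) and MMP15 without untreated replicate 3 or UNC0642 replicate 3 (0.0586 and 0.106). PLAU, PLAUR, PLAT and the TIMPs were not called with GSK-484 or UNC0642 against untreated cells as counted. With the GC trend removed and the other compounds as the reference, PLAUR (-0.16; edgeR adjusted p = 0.000774) and PLAT (-0.097; edgeR adjusted p = 0.0285) were called lower with UNC0642.

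Over all 6 compounds, 36 of the 44 members were called with at least 1, and 8 with none in the counts as they stand: ADAM23, ADAM32, ADAMTS3, ADAMTS15, ADAMTS17, MMP1, MMP9 and MMP25. MMP15 was called higher with all 6, and ADAM15 and MMP17 with 5, and each of these 3 was called in all 3 fits with JQ-1 only. MMP14 and MMP2 were each called higher with 4 compounds, in all 3 fits with GSK-591 only, and lower with JQ-1. The mean of MMP14 was 1771 CPM with GSK-591, 1693 with MS023 and 1677 with GSK-484, against 1477 in untreated cells. The 5 compounds other than JQ-1 gave 67 calls of 0.10 to 0.86 in size (median 0.25, against 1.08 for the JQ-1 calls), of which 14 held in all 3 fits, in 13 members. ADAMTS6 was lower in all 3 fits with JQ-1, TP-472 and MS023. All these comparisons share the 3 untreated libraries, so repeated calls are not independent. The matching totals over all genes were not counted, so these totals are not a result about the members. JQ-1 alone called 31 of the 44 members and 72.5% of all genes.

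**Figure D4:**
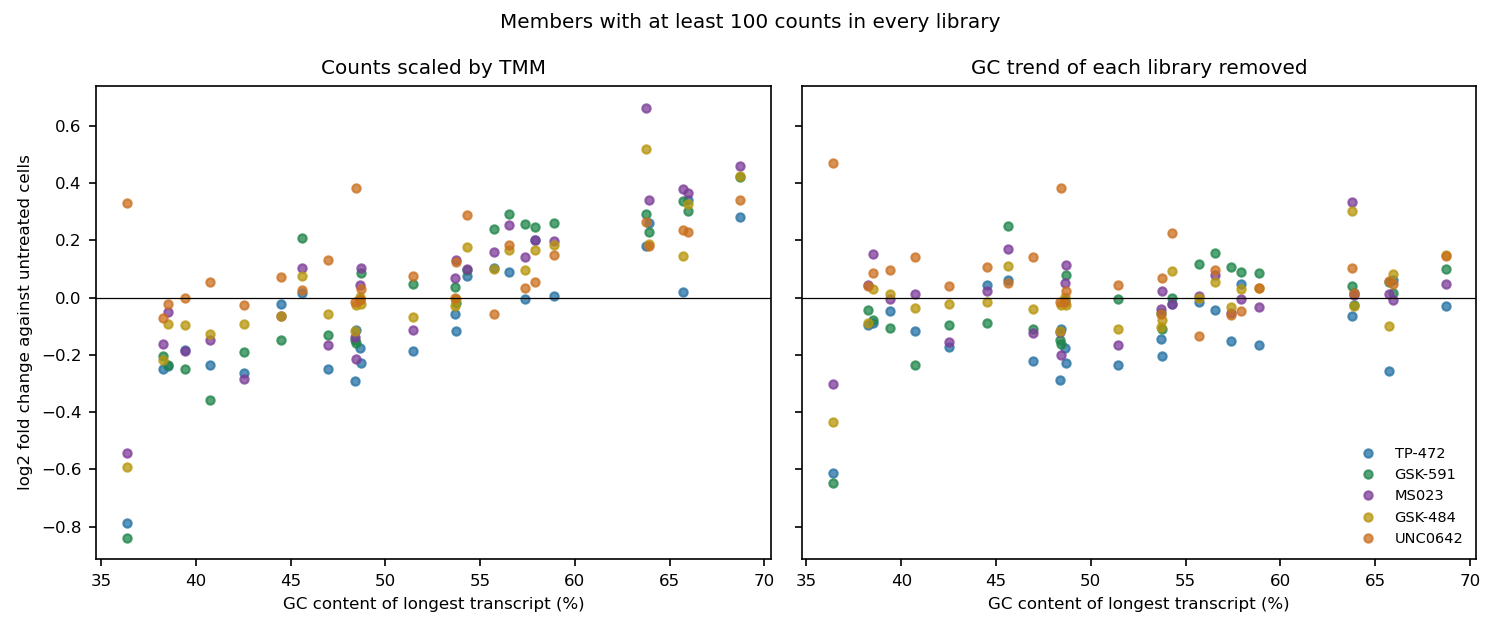
Log2 fold change against untreated cells (y axis) against the GC content of the longest transcript in percent (x axis) for the 27 tested members with at least 100 counts in every library, for the 5 compounds other than JQ-1 (colours), as counted (left) and with the GC trend of each library removed (right). On the left GC-rich members such as MMP15 (65.95% GC) lie higher than GC-poor ones such as ADAM10 (38.3% GC), and on the right the slope is smaller.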

How the data were processed

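The deposited table holds expected counts per gene for 21 libraries, made by the authors with RSEM 1.2.15 and Bowtie2 2.1.0 on build hg38, per the submitters' processing notes. The annotation behind the count table and its strand setting are not known from the labels. Counts were rounded and kept where at least 3 libraries had 10 or more (15287 genes). They were fitted in edgeR 4.0.16 (R 4.3.3, limma 3.58.1) with TMM scaling and 1 term per group over all libraries, two-sided, with Benjamini-Hochberg adjustment and calls under 0.05. DESeq2 1.42.0 served as an alternative. The GC trend is a loess curve (span 0.3, 4 iterations) of log2 CPM (prior count 2) on the GC content of the longest GENCODE transcript on GRCh38, known for 93.5% of tested genes and entered as an offset. Promoters and figures were made in Python 3.11.15. The fitting code was tested on simulated data with known changes.

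Depth bounds the precision of rare genes: 7 tested members had under 10 counts in at least 1 library. Fractional counts, from reads shared with other genes, occurred in over 5% of libraries for 8 tested members. The shares were 100% for ADAMTS7, 95.2% for MMP19, MMP24 and MMP25, 61.9% for ADAMTS9, 47.6% for PLAU, 33.3% for ADAM21 and 9.52% for MMP3. No replicate libraries were identical. Named with values were PLAU, PLAUR, PLAT and the TIMPs, per comparison the called members whose libraries do not overlap, by size (up to 8 in each direction for JQ-1 and for TP-472 against JQ-1, otherwise 4), those called in all 3 fits, and up to 3 genes per pathway list; further members are given as counts or values. 1 gene of the plasminogen list is counted but not reported here by name. The members and the lists were chosen with earlier results of these data known. The replicate numbers did not pair samples: same-numbered deviations correlated at -0.12 to 0.11 over 24 pairs. Alternatives were another scaling, filter, reference or tool, the GC trend removed, the groups alone, a replicate block, and each replicate left out.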

Additional observations from a re-analysis of the deposited data

How the results depend on the processing

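Over all settings pooled, most of the single-gene values kept their direction and their side of the threshold, including those not called in either fit. The cause of the exceptions below was not tested. With GSK-484 cells as the reference 48 values stayed the same, 29 lost their call, 6 turned direction and 1 gained a call. Of the 67 calls with the 5 compounds other than JQ-1, 14 held in all 3 fits. With other treated groups as the reference, the count of called members was 6 for GSK-591, 6 for MS023, 0 for GSK-484 (5 at an unadjusted p under 0.05) and 15 for UNC0642; with GSK-484 cells as the reference it was 5 for TP-472, 1 for GSK-591, 3 for MS023 and 1 for UNC0642. Without the GC trend it was 6 for GSK-591, 5 for MS023, 0 for GSK-484 (9 unadjusted), 1 for UNC0642 and 5 for GSK-591 against MS023. Of all genes, that fit called 12.9, 16.9, 0.721, 2.65 and 10.1%, in the same order. With both changes it was 6 for GSK-591, 6 for MS023, 0 for GSK-484 (6 unadjusted) and 14 for UNC0642, where 26% of all genes were called with UNC0642. Shares of all genes were not counted for the other alternatives, here and above. Those member counts therefore describe the processing and not the members. UNC0642 gave 4 under total-count scaling and 3 with the groups fitted alone, where GSK-484 gave 0 (10 unadjusted); DESeq2 called 9 with GSK-484. Leaving out 1 replicate at a time gave 30 to 33 called members for JQ-1, 11 to 17 for TP-472, 13 to 19 for GSK-591, 11 to 20 for MS023, 5 to 9 for GSK-484, 3 to 7 for UNC0642, 32 to 35 for TP-472 against JQ-1 and 1 to 4 for GSK-591 against MS023. The replicate block gave 32, 14, 18, 18, 6 and 8 called members for JQ-1, TP-472, GSK-591, MS023, GSK-484 and UNC0642, 37 for TP-472 against JQ-1 and 2 for GSK-591 against MS023; in 8 of the 24 pairings of a comparison with a replicate number, the sample correlated best with its own number. Directions turned as follows, in log2. Total-count scaling turned ADAM9 with JQ-1 to -0.0025. For GSK-591, MMP15 turned to -0.012 (other treated groups as the reference), -0.024 (GSK-484 cells) and -0.029 (both changes), and with GSK-484 cells ADAM10 to 0.012 and MMP17 to -0.0060. For MS023, ADAM10 turned to 0.023 (other treated groups), 0.054 (GSK-484 cells), 0.043 (GC trend removed) and 0.090 (both), PLAU to -0.11 (other treated groups) and -0.14 (both), TIMP1 to -0.0061 (GC trend removed) and -0.036 (both), and under both ADAM9 to 0.0073 and MMP17 to -0.044. For GSK-484, ADAM15 turned to -0.066 (other treated groups), -0.031 (GC trend removed) and -0.035 (both). For UNC0642, other treated groups turned MMP15 to -0.10, MMP17 to -0.055 and MMP2 to -0.017, GSK-484 cells turned MMP15 to -0.098 and MMP17 to -0.084, and both changes turned PLAT to -0.097.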

Other observations

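With TP-472, genes that act with the proteases were called in both directions. Of 19 ligands and receptors that ADAMs release, 3 were called higher and 7 lower with TP-472, and 4 were lower in all 3 fits, where 17% of all genes were called higher, 14.3% lower and 2.45% lower in all 3 fits. Of those 4, the receptor NOTCH2 fell by 0.33 (SE 0.074) from 196 ± 25.2 to 156 ± 6.88 CPM, the adhesion protein ALCAM by 0.33 (SE 0.042) from 258 ± 15.7 to 205 ± 5.19 CPM and the growth factor NRG1 by 0.31 (SE 0.068) from 28.5 ± 0.620 to 22.96 ± 1.58 CPM (SD, n = 3). Of 10 ADAMTS-like genes and ADAMTS substrates, 1 was called higher and 4 lower, with fibrillin-1 (FBN1) lower by 0.28 (SE 0.069) and THBS1 by 0.24 (SE 0.045) in all 3 fits. THBS1 thus stood above untreated cells with JQ-1 and below them with TP-472, and the difference between these compounds was -1.31 (SE 0.044; edgeR adjusted p = 2.41e-17). Of 15 activators and partners 6 were called higher with TP-472, none of them in all 3 fits.

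With the arginine methyltransferase compounds, the procollagen C-proteinase BMP1 rose by 0.42 (SE 0.052) from 50.8 ± 1.84 to 68.03 ± 2.78 CPM with GSK-591 and by 0.43 (SE 0.051) to 68.5 ± 4.79 CPM with MS023, in all 3 fits with GSK-591 only, and the 2 compounds differed by -0.012 (SE 0.052; edgeR adjusted p = 0.918). RHBDF1, a partner of ADAM17, rose by 0.50 (SE 0.057) from 19.2 ± 0.654 to 27.2 ± 2.24 CPM with MS023 in all 3 fits, and was lower with GSK-591 than with MS023 by 0.23 (SE 0.058). Between the same compounds, the growth factor NRG1 was lower with GSK-591 by 0.33 (SE 0.070), the protease HTRA1 was higher by 0.33 (SE 0.043) and FURIN, a proprotein convertase that activates MMP14 and ADAMs, was lower by 0.23 (SE 0.039), each called with and without the GC trend. These genes were chosen after their values were seen.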
